A study of Mus musculus with 19 samples.

Results

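The genes described here are 10 genes of natural killer (NK) cells, namely the receptor genes Ncr1, Klrb1c, Klrd1, Klrk1, Klre1, Klrc1 and Cd226, the granule protein gene Nkg7 and the transcription factor genes Eomes and Tbx21. They were chosen by name among the 48795 genes of the table, and all 10 were found by their Ensembl identifiers. The tumors were 19 primary p53/MCA sarcomas, 11 from Rag2-/- mice, which lack T and B cells, and 8 from Rag2+/- mice, which keep them. Every tumor had been started in the gastrocnemius of a mouse of 6 to 10 weeks by an adenovirus carrying Cas9 with a guide against Trp53, followed by 300 µg of the carcinogen 3-methylcholanthrene (MCA). Tumors were untreated and were collected at 70 to 150 mm3, 1 tumor per mouse. The genotypes therefore share the Trp53 guide and the carcinogen and differ in Rag2. The labels give no strain, sex or litter.

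NK cells are lymphocytes that kill target cells and release cytokines without a rearranged antigen receptor, so they form in mice without Rag2. Their response is set by the balance of activating receptors, which signal through adaptor proteins such as DAP10 and DAP12, and inhibitory receptors, many of which bind MHC class I molecules. Of the 10 genes, Ncr1, Klrb1c and Klre1 are used mainly by NK cells and related innate lymphocytes. The others are also used by T cells, above all activated CD8+ T cells, which only the Rag2+/- mice have. In bulk tumor RNA, fewer cells of a type and less RNA per cell cannot be told apart.

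Promoters are shown for Ncr1, Klrk1 and Klrc1, receptor genes whose pairs had r from 0.78 to 0.89 among the Rag2-/- tumors. As given below, that of Ncr1 with Klrk1 rested on a few tumors, and other pairs were closer. Each is the 250 bases before a RefSeq start of the gene (GRCm38.p6), at chr7:4337465-4337714 on the plus strand for Ncr1, at chr6:129623865-129624114 on the minus strand for Klrk1 and at chr6:129678974-129679223 on the minus strand for Klrc1. Each is written 5′ to 3′ along its gene, and capitals mark a RUNX motif, searched as TGTGGTT or TGCGGTT on both strands. RUNX factors, among them Runx3, take part in NK cell development.
Ncr1: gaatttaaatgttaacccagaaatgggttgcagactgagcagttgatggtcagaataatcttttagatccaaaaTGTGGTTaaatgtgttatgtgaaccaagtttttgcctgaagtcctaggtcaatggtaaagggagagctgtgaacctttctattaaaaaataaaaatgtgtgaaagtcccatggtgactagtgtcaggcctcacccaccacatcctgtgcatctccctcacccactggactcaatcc
Klrk1: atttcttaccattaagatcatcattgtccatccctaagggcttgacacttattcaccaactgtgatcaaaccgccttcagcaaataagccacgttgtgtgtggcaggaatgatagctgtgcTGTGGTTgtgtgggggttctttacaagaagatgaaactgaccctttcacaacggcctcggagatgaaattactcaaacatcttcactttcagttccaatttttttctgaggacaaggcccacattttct
Klrc1: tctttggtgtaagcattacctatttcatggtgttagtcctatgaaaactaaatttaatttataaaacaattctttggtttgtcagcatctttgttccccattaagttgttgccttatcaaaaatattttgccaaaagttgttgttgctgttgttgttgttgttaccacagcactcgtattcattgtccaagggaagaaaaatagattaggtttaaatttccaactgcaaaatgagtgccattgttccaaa
Counted from the start site, the motif lay from −176 to −170 in Ncr1 and from −129 to −123 in Klrk1, and these letters were not in the Klrc1 window. Promoters of 8 of the 10 genes were used, and 3 of the 8 held the motif, the other being Klre1. Of 32851 promoters of the same length, 5.595% held it. Klrd1 had no promoter in the RefSeq table, and that of Cd226 is not reported here. A T-box motif, searched as GGTGTGA on both strands because Eomes and Tbx21 are T-box factors, was in 1 of the 8 promoters, that of Nkg7, beside 3.333% of all. An ETS motif, searched as GGAAGT on both strands, was in 2 of the 8, those of Klrb1c and Tbx21, beside 19.74% of all. No window held more than 1 of the 3 motifs. Ncr1 and Klre1 each had 2 windows in the RefSeq table, and only the first was used. A match describes the sequence and is not a measured binding site.

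All values below are log2 values of the authors' upper-quartile normalized FPKM (fragments on a gene, scaled to its length and to the depth of the library) with 0.1 added, so that a gene with no fragments stands at −3.32. The fragments on genes were estimated from the low values at 24.5 to 33.7 M in 18 tumors and at 5.23 M in S41, a Rag2-/- tumor. S56 and S60, both Rag2+/-, held the fewest genes at 1 to 3 estimated fragments, and S56 was lowest in several immune gene groups. Results of the 10 genes are therefore also given without S41, S56 and S60 where that matters. T cell markers checked the genotype labels. No Rag2-/- tumor had a value of Cd3e above −3.32, whereas the 8 Rag2+/- tumors averaged 1.47 ± 1.17 (SD). The summed level of 10 T cell markers ran from 0.718 to 6.89 normalized FPKM in Rag2-/- tumors and from 10.5 to 52.3 in Rag2+/- tumors. Genotypes were compared by limma across the 16663 genes that passed a filter on low values, with Benjamini-Hochberg adjustment over all of them, and each of the 10 genes also by a two-sided exact permutation test over 75582 relabelings. All 10 genes passed the filter.

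RNA of the NK genes was present in tumors of mice without T and B cells, where Cd226 was the only one at −3.32 in any tumor, and none of the 10 passed the test between genotypes. Ncr1, Klrb1c and Eomes had higher means in Rag2-/- tumors and Cd226 a lower mean, each with an unadjusted p under 0.05 and an adjusted p above it. Klrk1, Nkg7, Klrc1 and Tbx21 had means within 0.26 of each other on the log2 scale. At an adjusted p under 0.05 (limma), 0 of 10 were higher and 0 of 10 lower, beside 0.0% and 0.132% of all genes tested. At an unadjusted p under 0.05, 3 of 10 were higher, beside 6.56% of all genes, and 1 of 10 was lower, beside 8.85%. Adjusted over all genes, the exact test called 20 genes and none of the 10. The median difference of the 10 genes was 0.42, and that of all genes tested was 0.07.

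**Figure D1:**
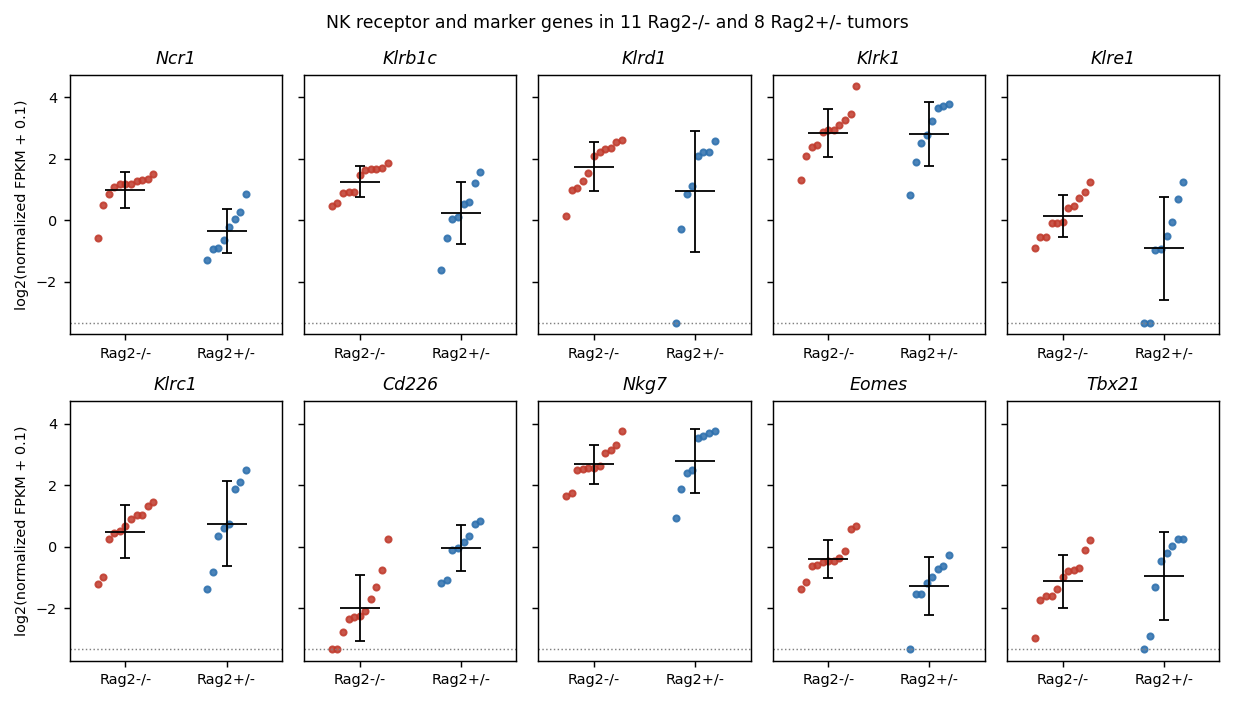
Values of the 10 genes in each tumor, on a log2 scale of normalized FPKM + 0.1, with tumors sorted from low to high within each genotype. Bars show mean ± SD and the dotted line the value of a gene with no fragments. In Ncr1, 9 of 11 Rag2-/- tumors lie above every Rag2+/- tumor, and in Cd226, 9 of 11 lie below every one.

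Ncr1 (ENSMUSG00000062524, chromosome 7, 4337724 to 4345164, plus strand) encodes NKp46, an activating receptor that marks NK cells across strains. Its lowest, median and highest values were −0.58, 1.18 and 1.51 in Rag2-/- tumors and −1.30, −0.42 and 0.85 in Rag2+/- tumors. The 8 Rag2+/- tumors all lay below the Rag2-/- median. Of the Rag2-/- tumors, 9 lay above every Rag2+/- tumor, and S48 and S50 fell within their range. Ncr1 averaged 0.98 ± 0.59 (SD) over the 11 Rag2-/- and −0.35 ± 0.71 (SD) over the 8 Rag2+/- tumors. The difference of 1.33 (SE 0.30), or 2.52-fold, came with an adjusted p of 0.139 by limma. The exact permutation test gave p = 7.67e-04 before adjustment. These levels rest on few fragments, an estimated median of 79.7 per Rag2-/- tumor and 19.8 per Rag2+/- tumor. The call turned on single tumors. Without S48, which had the lowest value of the Rag2-/- tumors, the difference was 1.49 with an adjusted p of 0.0142 by limma, and without S52, which had the highest value of the Rag2+/- tumors, it was 1.50 with an adjusted p of 0.0447. With any other tumor left out it was not called, up to an adjusted p of 0.373 without S59 (limma, difference 1.20). Without S41, S56 and S60 the difference was 1.47 with an adjusted p of 0.260.

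Klrb1c (ENSMUSG00000030325, chromosome 6, 128778485 to 128789215, minus strand) encodes NK1.1, an activating lectin-like receptor used to identify NK cells in some mouse strains. The lowest, median and highest values of Klrb1c were 0.46, 1.46 and 1.88 in Rag2-/- tumors and −1.62, 0.32 and 1.58 in Rag2+/- tumors. All 11 Rag2-/- tumors lay above the Rag2+/- median, while the ranges overlapped. The difference was 1.02 (SE 0.34) with an adjusted p of 0.314 by limma, and it was 0.54 without S41, S56 and S60. The predicted gene Gm44511 lies on the same strand and shares 413 of the 2961 exonic bases of Klrb1c, so reads may have been split between them.

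Klre1 (ENSMUSG00000050241, chromosome 6, 129577905 to 129585827, plus strand) encodes a lectin-like NK receptor that pairs with KLRI1 or KLRI2. In order of lowest, median and highest, values of Klre1 were −0.88, −0.04 and 1.25 in Rag2-/- tumors and −3.32, −0.73 and 1.23 in Rag2+/- tumors, where S56 and S60 were both at −3.32. The other 6 Rag2+/- tumors lay within the Rag2-/- range or just below it. The difference was 1.04 (SE 0.53) with an adjusted p of 0.338 by limma, and it was 0.20 without S41, S56 and S60.

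Klrd1 (ENSMUSG00000030165, chromosome 6, 129591782 to 129598775, plus strand) encodes CD94, the shared chain of the CD94/NKG2 receptors for the nonclassical MHC molecule Qa-1. Klrd1 had a lowest, median and highest value of 0.15, 2.10 and 2.61 in Rag2-/- tumors and −3.32, 1.60 and 2.58 in Rag2+/- tumors. S56, at −3.32, and S60, at −0.27, lay below every Rag2-/- tumor, and the other 6 Rag2+/- tumors lay within the Rag2-/- range. The difference was 0.80 (SE 0.61, adjusted p = 0.469, limma), and without S41, S56 and S60 it turned to −0.15.

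Klrc1 (ENSMUSG00000030167, chromosome 6, 129666015 to 129678973, minus strand) encodes NKG2A, the inhibitory partner of CD94, which activated CD8+ T cells also carry. Values of Klrc1 (lowest, median and highest) were −1.23, 0.67 and 1.45 in Rag2-/- tumors and −1.38, 0.68 and 2.50 in Rag2+/- tumors. The medians were alike, and 3 Rag2+/- tumors lay above every Rag2-/- tumor. The difference was −0.26 (SE 0.49, 95% interval −1.28 to 0.77) with an adjusted p of 0.772 by limma. It ran from −0.56 to −0.0087 with 1 tumor left out, and was −0.60 in the 15 tumors that the study plotted and −0.87 without S41, S56 and S60. Klrc1 shares 38.1% of its 50-base stretches with Klrc2, so its level is uncertain.

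Klrk1 (ENSMUSG00000030149, chromosome 6, 129610323 to 129623864, minus strand) encodes NKG2D, an activating receptor for stress-induced ligands that is found on NK cells and activated CD8+ T cells. Klrk1 had a lowest, median and highest value of 1.33, 2.94 and 4.35 in Rag2-/- tumors and 0.82, 2.99 and 3.77 in Rag2+/- tumors. Klrk1 averaged 2.84 ± 0.79 (SD) over the 11 Rag2-/- and 2.80 ± 1.04 (SD) over the 8 Rag2+/- tumors, with ranges that overlapped almost fully. The difference was 0.04 (95% interval −0.78 to 0.86, adjusted p = 0.960, limma). In the 15 tumors that the study plotted the direction turned, with a difference of −0.44, and without S41, S56 and S60 it was −0.26.

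Cd226 (ENSMUSG00000034028, chromosome 18, plus strand) encodes DNAM-1, an activating receptor for the adhesion molecules PVR and nectin-2 that NK cells, T cells and some myeloid cells carry. Its lowest, median and highest values were −3.32, −2.25 and 0.25 in Rag2-/- tumors and −1.19, 0.06 and 0.83 in Rag2+/- tumors. Of the Rag2-/- tumors, 9 lay below every Rag2+/- tumor and 2, S41 and S50, were at −3.32. S51, at 0.25, and S46, at −0.75, were the Rag2-/- tumors within the Rag2+/- range. Cd226 averaged −1.99 ± 1.07 (SD) over the 11 Rag2-/- and −0.04 ± 0.75 (SD) over the 8 Rag2+/- tumors. The difference of −1.95 (SE 0.43), or 3.86-fold lower with 0.1 added, came with an adjusted p of 0.121 by limma. Its size depends on the value added, from −0.68 with 1 added to −2.92 with 0.01. The exact permutation test gave p = 9.13e-04 before adjustment. The estimated fragments had a median of 13.3 per Rag2-/- tumor and 80.7 per Rag2+/- tumor. The gene passed the test in the 15 tumors that the study plotted, where the difference was −2.19 with an adjusted p of 0.0113 by limma, and without S51 alone, where it was −2.17 with an adjusted p of 0.00947. Without S41, S56 and S60 it was −1.72, with an adjusted p of 0.742. S51 also had the highest mean of 12 skeletal muscle genes among Rag2-/- tumors, at 11.78 beside 4.40 to 9.91 in the other 10, and the part of muscle in its Cd226 value was not tested.

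Nkg7 (ENSMUSG00000004612, chromosome 7, 43437073 to 43438249, plus strand) encodes a membrane protein of cytotoxic granules in NK and CD8+ T cells. The lowest, median and highest values of Nkg7 were 1.63, 2.57 and 3.77 in Rag2-/- tumors and 0.93, 3.02 and 3.75 in Rag2+/- tumors. The highest tumors of both genotypes stood at nearly the same level. The difference was −0.11 (SE 0.36, 95% interval −0.87 to 0.64) with an adjusted p of 0.873 by limma. It was −0.34 in the 15 tumors that the study plotted and −0.27 without S41, S56 and S60, and ran from −0.38 to 0.025 with 1 tumor left out.

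Eomes (ENSMUSG00000032446, chromosome 9, 118478212 to 118486132, plus strand) encodes a T-box factor that separates conventional NK cells from other group 1 innate lymphocytes. Its lowest, median and highest values were −1.38, −0.47 and 0.66 in Rag2-/- tumors and −3.32, −1.08 and −0.28 in Rag2+/- tumors. Of the Rag2-/- tumors, 3 lay above every Rag2+/- tumor, and S56 was at −3.32. The difference was 0.86 (SE 0.36) with an adjusted p of 0.314 by limma, and 0.51 without S41, S56 and S60. The predicted gene Gm33460 on the opposite strand shares 118 of its 4155 exonic bases, and the counting is not stated to use strand.

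Tbx21 (ENSMUSG00000001444, chromosome 11, 97098071 to 97115331, minus strand) encodes T-bet, a T-box factor of NK cells, other group 1 innate lymphocytes and type 1 T cells. Values of Tbx21 (lowest, median and highest) were −2.95, −0.97 and 0.21 in Rag2-/- tumors and −3.32, −0.32 and 0.24 in Rag2+/- tumors. The Rag2+/- median was higher than 9 of the 11 Rag2-/- tumors, while S53 and S56 were near the lowest value. The difference was −0.17 (SE 0.51, 95% interval −1.23 to 0.88) with an adjusted p of 0.860 by limma. It was −0.68 in the 15 tumors that the study plotted and −0.51 without S41, S56 and S60, and ran from −0.51 to 0.011 with 1 tumor left out.

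**Figure D2:**
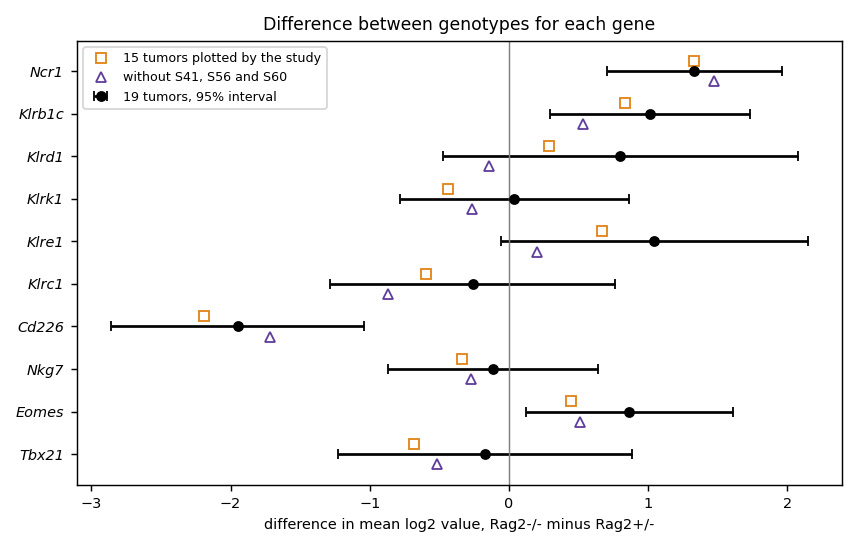
Difference in mean log2 value between Rag2-/- and Rag2+/- tumors for each gene, with the 95% interval of the limma fit on 19 tumors (black), the 15 tumors plotted by the study (squares) and the fit without S41, S56 and S60 (triangles). Ncr1 stays between 1.33 and 1.47 and Cd226 between −2.19 and −1.72, while Klrd1 and Klrk1 lie on either side of 0.

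Ordered by level, which FPKM allows because it is per length, Klrk1 led in Rag2-/- tumors with a median of 7.57 normalized FPKM, followed by Nkg7 at 5.83, Klrd1 at 4.18, Klrb1c at 2.65, Ncr1 at 2.17 and Klrc1 at 1.50. Klre1, Eomes, Tbx21 and Cd226 followed with medians from 0.870 down to 0.110. In Rag2+/- tumors the medians of Nkg7 and Klrk1 were highest, at 8.54 and 7.96 normalized FPKM, followed by Klrd1 at 3.11, and Eomes came last at 0.374. Cd226 was in the 10th place in Rag2-/- tumors and in the 6th in Rag2+/- tumors, and Ncr1 in the 5th and in the 8th. The ranges of all neighbors in both orders overlapped. Klrk1 and Nkg7 cannot be put in order, since Klrk1 was above Nkg7 in 7 of 11 Rag2-/- tumors, and Nkg7 above Klrk1 in 2 of 8 Rag2+/- tumors against the order of the medians. Likewise, Tbx21, in the 7th place in Rag2+/- tumors, was above Ncr1 in 3 of the 8. Nkg7 was above Klrd1 in 11 of 11 Rag2-/- tumors.

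Ncr1 and Cd226 were set against each other within each tumor, a ratio chosen after their values were seen. On the log2 scale, Ncr1 minus Cd226 averaged 2.97 ± 0.88 (SD) over the 11 Rag2-/- and −0.31 ± 0.93 (SD) over the 8 Rag2+/- tumors. The lowest Rag2-/- tumor was at 1.26 and the highest Rag2+/- tumor at 0.89, so the genotypes did not overlap. Of all genes tested, 0.666% gave such a separation when set against Ncr1. The two-sided exact permutation test gave p = 1.32e-05, the smallest these groups allow. Ncr1 alone stood 1.33 higher in the mean of Rag2-/- tumors, and 74.5% of all genes had an unadjusted exact p under 0.05 with Ncr1 higher, so the p-value says little about Cd226. Cd226 was the only one of the 9 other genes to separate the tumors fully. Against Nkg7, 7 of 11 Rag2-/- tumors lay above every Rag2+/- tumor, against Klrc1 1 did, and against the other 6 genes none did.

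**Figure D3:**
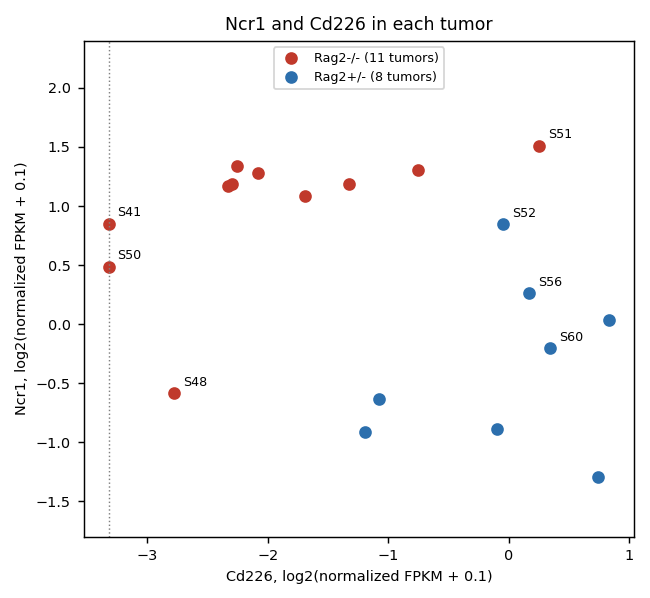
Ncr1 against Cd226 in each of 19 tumors, both on the log2 scale of normalized FPKM + 0.1, with Rag2-/- tumors in red and Rag2+/- tumors in blue. The dotted line marks a gene with no fragments. Rag2-/- tumors lie to the upper left, and every one of them has a higher Ncr1 minus Cd226 (1.26 or more) than any Rag2+/- tumor (0.89 or less).

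The genes were also set against Ptprc, which encodes CD45 and stands for all leukocytes. Ptprc itself averaged 5.13 ± 0.43 (SD) over the 11 Rag2-/- and 4.76 ± 0.75 (SD) over the 8 Rag2+/- tumors. Relative to Ptprc, Ncr1 was higher in Rag2-/- tumors by 0.96 (two-sided exact permutation test, p = 0.0169), Klrb1c by 0.64 (exact p = 0.0273) and Eomes by 0.49 (exact p = 0.0292). Cd226 relative to Ptprc averaged −7.12 ± 0.80 (SD) over the 11 Rag2-/- and −4.80 ± 0.94 (SD) over the 8 Rag2+/- tumors, so the difference was −2.32 (exact p = 3.97e-05). The other 6 genes had exact p-values between 0.111 and 0.409. These p-values are not adjusted. At an exact p under 0.05 relative to Ptprc, 3 of the 10 genes were higher, beside 0.594% of all genes, and 1 was lower, beside 12.7%. Ptprc was itself 0.37 higher in the mean of Rag2-/- tumors, so setting a gene against it lowers the difference of every gene by that amount. With the mean of the macrophage markers in place of Ptprc, Klrb1c (0.66, exact p = 0.0585) and Eomes (0.51, exact p = 0.131) did not stay under 0.05. Without S41, S56 and S60, Klrb1c relative to Ptprc did not either (0.46, exact p = 0.146), Ncr1 was at 1.39 (exact p = 5.00e-04), and Klrc1 passed 0.05 with a difference of −0.95 (exact p = 0.0170).

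Among Rag2+/- tumors, all 10 genes had a positive r with the level of T cell markers, with a median of 0.73 and a range from 0.01 for Ncr1 to 0.94 for Tbx21. Only Tbx21 and Nkg7 had an adjusted p under 0.05. Tbx21 followed the mean of the 10 T cell markers with Pearson's r = 0.94 and Spearman's rho = 0.98 over 8 tumors (exact permutation tests, p = 4.96e-05 and p = 3.97e-04, adjusted over 80 relations to 0.00397 and 0.0317). Nkg7 had r = 0.91 and rho = 0.86 (exact permutation tests, adjusted p = 0.0400 and 0.107). Without the pair of tumors farthest from the median T cell level, r was 0.94 for Tbx21 and 0.98 for Nkg7. Klrk1 had r = 0.84 and rho = 0.81, and Klrb1c r = 0.78 and rho = 0.79 (exact permutation tests, adjusted p = 0.0558 and 0.140 for Klrk1 and 0.0844 and 0.140 for Klrb1c). Klre1 had r = 0.66 and rho = 0.65 (exact permutation tests, adjusted p = 0.206 and 0.262). Ncr1 had r = 0.01 and rho = 0.02 (exact permutation tests, p = 0.987 and 0.977). The difference in r between genes was not tested. Cd226 had r = 0.65 and rho = 0.62 (exact permutation tests, adjusted p = 0.229 and 0.304). Over the 6 Rag2+/- tumors left without S56 and S60, r was 0.90 for Cd226, 0.25 for Ncr1, 0.97 for Tbx21 and 0.99 for Nkg7. The T cell level left a gap between 4 tumors at 0.09 to 1.07 and 4 tumors at 1.90 to 2.31, which are few and were not tested apart. Klrb1c, Klrd1, Klrk1 and Eomes followed Ptprc with r from 0.89 to 0.94 and rho from 0.79 to 0.90 (exact permutation tests, adjusted p of 0.0347 to 0.0459 for r and 0.107 to 0.140 for rho), and without the 2 tumors farthest from the median r fell to 0.61 to 0.74. Klrb1c also followed the mean of the macrophage markers (r = 0.88, rho = 0.88, exact permutation tests, adjusted p = 0.0400 and 0.107), with r = 0.60 without the 2 tumors farthest from the median of that mean. In Rag2-/- tumors, Nkg7 followed Ptprc (r = 0.80, rho = 0.69, permutation tests, adjusted p = 0.0400 and 0.140, n = 11), with r = 0.56 without the farthest 2. With those of Nkg7 and Tbx21 on the T cell markers, these were the 8 relations of 80 with an adjusted p under 0.05 for r, and Tbx21 with T cell markers was the 1 for rho.

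**Figure D4:**
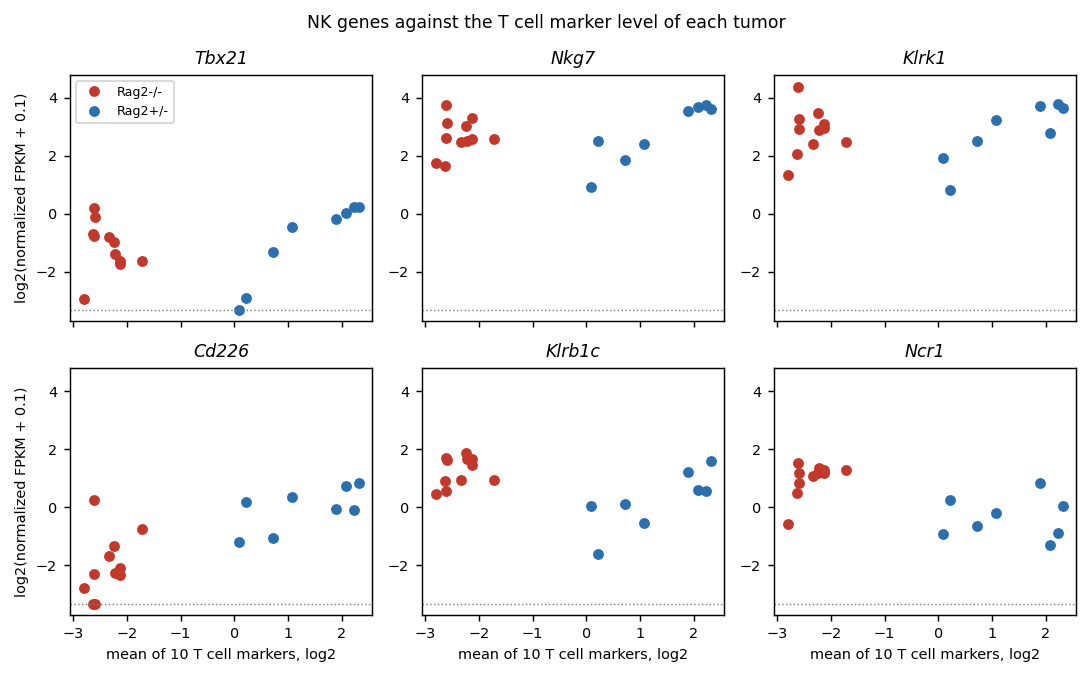
Tbx21, Nkg7, Klrk1, Cd226, Klrb1c and Ncr1 against the mean of 10 T cell markers in each tumor, both on the log2 scale of normalized FPKM + 0.1, with Rag2-/- tumors in red and Rag2+/- tumors in blue. Tbx21 and Nkg7 climb with the T cell level in Rag2+/- tumors (r = 0.94 and r = 0.91), and Ncr1 has r = 0.01.

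In Rag2-/- tumors, where the T cell markers other than Cd4 and Cd28 stood near the lowest value, most NK genes correlated positively with each other. Of 45 pairs, 43 had a positive r with a median of 0.57, and 7 pairs had an adjusted permutation p under 0.05 for r over 90 pairs. Klrb1c with Klrd1 (r = 0.93, rho = 0.91, permutation test, adjusted p = 0.00420 and 0.0112, n = 11) and Klrk1 with Nkg7 (r = 0.92, rho = 0.94, adjusted p = 0.00420 and 0.00630) were the closest. Without the pair of tumors farthest from the median, r was 0.94 and 0.85. Of the 45 gene pairs, only these also had an adjusted permutation p under 0.05 for rho. Ncr1 moved with Klrc1 (r = 0.89, rho = 0.78, permutation test, adjusted p = 0.00540 and 0.0571, n = 11) and Klrk1 (r = 0.78, rho = 0.55, adjusted p = 0.0327 and 0.205), and Klrk1 with Klrc1 (r = 0.86, rho = 0.81, adjusted p = 0.00420 and 0.0571). S48 was lowest in 7 of the 10 genes and S51 highest in 6, and without the pair of tumors farthest from the median r fell to 0.67, 0.38 and 0.77. In Rag2+/- tumors 40 of 45 pairs were positive with a median r of 0.52, and 5 had an adjusted exact permutation p under 0.05 for r. For rho the lowest adjusted exact permutation p in Rag2+/- tumors was 0.0571. There Ncr1 with Klrc1 gave r = −0.35 and rho = −0.33 (exact permutation test, adjusted p = 0.516 and 0.566, n = 8). Over all other NK genes, r of Ncr1 in Rag2+/- tumors ran from −0.35 for Klrc1 to 0.20 for Cd226, and with Ptprc it was −0.06. The difference in r between genotypes was not tested. In Rag2-/- tumors all 10 genes also had a positive r with Ptprc (median 0.61) and with the mean of the muscle genes (median 0.46). The same counts over all pairs of genes were not made.

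The 8 genes whose values, centred on the mean of each genotype, followed Ncr1 most closely over 19 tumors were Angpt1 (r = 0.74), Tmem159 (0.71), Zc3h12c (0.69), Plekho1 (0.69), Casq2 (0.68), Mybph (0.68), Gm45844 (0.67) and Chmp4c (0.67). Casq2 encodes the calcium-binding calsequestrin of slow and cardiac muscle, and Mybph a myosin-binding protein. Of the other 9 NK genes the closest was Cd226, which ranked 1035 with r = 0.41. These values describe likeness only and carry no test.

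The other genes of the NK system were described from lists (chosen with earlier results known), beside a median difference of 0.07 and calls of 0.0% higher and 0.132% lower over all genes. Of 15 other lectin-like receptors tested of 19, 0 were called, and the median difference was 0.25. At an unadjusted p under 0.05 by limma, 4 were higher (Klrg1, Klra7, Klra8 and Klrb1f), beside 6.56% of all genes, and 0 lower, beside 8.85%. The furthest apart were Klrg1, an inhibitory receptor of mature NK and T cells, at 0.65 in Rag2-/- and −0.77 in Rag2+/- tumors (difference 1.42, adjusted p = 0.314, limma), Klra7, which encodes Ly49G2, at a difference of 1.34, and Klra4 at 1.12. Ly49 genes are near-identical in parts, so their single levels are uncertain. Klrg1, Klra7, Klra8 and Klrb1f each had 1 Rag2+/- tumor at −3.32. The median of Klrg1 was 0.83 in Rag2-/- and −0.47 in Rag2+/- tumors. Of 13 adaptor and signaling genes, 0 were called, and the median difference was 0.30. At an unadjusted p under 0.05, 1 was higher (Sh2d1b2) and 2 lower (Zap70 and Cd247). Zap70, the kinase downstream of the T cell receptor and of NK receptors, was at −0.35 in Rag2-/- and 0.98 in Rag2+/- tumors (difference −1.33, adjusted p = 0.170, limma), Sh2d1b1 was at a difference of 1.01 and Sh2d1b2 at 0.88. Tyrobp, which encodes DAP12, was at 7.54 and 7.18, and macrophages use it as well.

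Of 9 other NK surface molecules tested of 10, 0 were called, with a median difference of 0.13, and at an unadjusted p under 0.05 by limma 0 were higher, beside 6.56% of all genes, and 2 lower (Cd27 and Tigit), beside 8.85%. Cd27, a costimulatory receptor of T cells and immature NK cells, was at −1.18 in Rag2-/- and 0.98 in Rag2+/- tumors (difference −2.16, adjusted p = 0.104, limma), Tigit, which shares the ligand PVR with DNAM-1, was at a difference of −1.49 and Crtam at −0.94. Cd27 was the 1 gene of this list called lower in the 15 tumors that the study plotted. Of 8 cytokine receptors and of 8 other transcription factors, 0 were called, with median differences of 0.04 and −0.04, and of both lists 1 gene, Il12rb2, was lower at an unadjusted p under 0.05 and 0 were higher, which is near or under those shares of all genes. Il12rb2 was at −0.80, Il18rap at 0.60 and Il18r1 at −0.56 as differences, and among the factors Runx3 was at 0.78, Gata3 at −0.37 and Zeb2 at 0.19.

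Of 10 effector genes, 0 were called, and the median difference was 0.60. Xcl1, a chemokine of NK and CD8+ T cells that draws dendritic cells, was at 1.82 in Rag2-/- and −0.34 in Rag2+/- tumors (difference 2.15, adjusted p = 0.313, limma). Gzma, the granzyme A gene, was at 3.75 and 1.79 (difference 1.96, adjusted p = 0.194), and Prf1, the perforin gene, at 2.12 and 0.19 (difference 1.93, adjusted p = 0.314). These 3 of 10 genes were higher at an unadjusted p under 0.05 by limma, beside 6.56% of all genes, and none of the 10 was lower, beside 8.85%. Of the Rag2+/- tumors, 2 stood at −3.32 in Xcl1 and 1 in Prf1. The medians in Rag2-/- and Rag2+/- tumors were 1.95 and 0.02 for Xcl1, and 2.29 and 0.63 for Prf1. Of 7 ligand genes tested of 8, 0 were called, with a median difference of 0.25, and 1, Raet1e, was higher at an unadjusted p under 0.05. Raet1e and Raet1d, NKG2D ligands, were at differences of 1.77 and 1.33, and Nectin2, a DNAM-1 ligand, at 0.48. Raet1 genes share sequence, so their single levels are uncertain. Raet1e was at −3.32 in 2 Rag2+/- tumors. The medians in Rag2-/- and Rag2+/- tumors were 1.75 and 0.68 for Raet1e, and 2.82 and 2.14 for Raet1d. The mean of the 8 ligand genes was −0.13 in S56 and 0.0005 in S60, beside 0.91 to 2.29 in the other Rag2+/- tumors.

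Markers of other cells were compared in the same way. Of the 10 T cell markers, 8 (Cd3d, Cd3e, Cd3g, Cd5, Cd6, Cd8a, Cd8b1 and Trac) were lower in Rag2-/- tumors (limma, adjusted p under 0.05), with a median difference of −4.05 over the 10 and the largest differences at Trac (−5.32), Cd3e (−4.80) and Cd3g (−4.59). Values of 7 of the 10 markers were lower in every Rag2-/- than in every Rag2+/- tumor, beside 0.084% of all genes tested. Cd4 and Cd28 were not called. Of 6 macrophage markers, 0 were called, with a median difference of 0.40, and Mrc1 was at 0.59. Of markers of other innate lymphocytes, Cxcr6 was at a difference of −1.58 (adjusted p = 0.176, limma) and Il7r at −0.85 (adjusted p = 0.385), both of which T cells also carry, and Il1rl1 was at 0.58 (adjusted p = 0.557). Of 12 skeletal muscle genes, 0 were called, with a median difference of −2.23, and 10 were lower at an unadjusted p under 0.05 by limma, beside 8.85% of all genes. The summed muscle level ran from 350 to 110800 normalized FPKM in Rag2-/- tumors and from 1906 to 162800 in Rag2+/- tumors. With the mean of the muscle genes in the fit, the difference of Ncr1 was 1.67 with an adjusted p of 0.0220 by limma, and that of Cd226 was −1.45 with an adjusted p of 0.755. The part that T cells, muscle and macrophages had in the differences of the NK genes was not tested further.

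**Figure D5:**
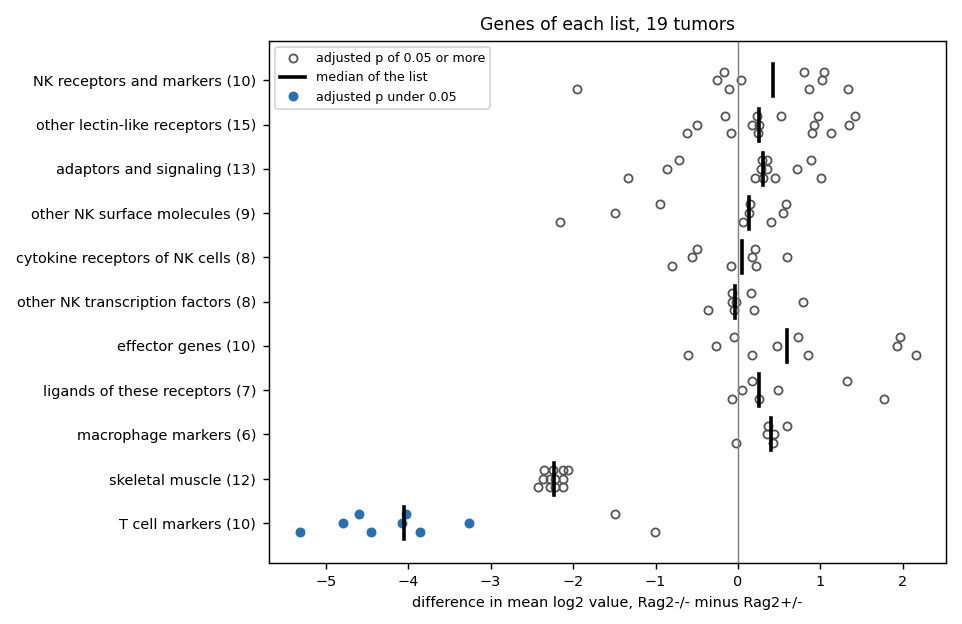
Difference in mean log2 value between Rag2-/- and Rag2+/- tumors for each tested gene of 11 lists, with the number of genes tested in brackets, filled where the adjusted p of the limma fit was under 0.05 and a bar at the median of each list. The 8 filled points are T cell markers, and the medians of the NK lists lie between −0.04 and 0.60.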

How the data were processed

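RNA of 19 primary tumors was sequenced by the authors with paired reads of 150 bases, from a library kit not stated to keep strand. Per the study's methods, reads were aligned by the authors to mouse genome B38 in Omicsoft Array Studio with at most 2 mismatches, and Ensembl R86 gene models were quantified. The submitters' processing notes list mm10 and other tools without a role. The deposited values are log2 of upper-quartile normalized FPKM with 0.1 added. A test made for counts does not suit such values and was not used. 0 columns of values were left unmatched to a tumor. Each tumor is 1 mouse, and groups follow the genotype labels.

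Symbols were matched to Ensembl identifiers with GENCODE vM21 (GRCm38), which also gave positions. Genes with normalized FPKM above 0.1 in at least 8 tumors (16663) were fitted in R 4.3.3 with limma 3.58.1, an intensity trend and no covariates, and called at a Benjamini-Hochberg adjusted p under 0.05. The fit was checked on simulated data. Differences are Rag2-/- minus Rag2+/-. Two-sided exact permutation tests used all relabelings. Correlations within a genotype used all permutations for 8 tumors and 100000 random ones for 11, adjusted over 80 relations and over 90 pairs. Fragments were estimated from steps in low values of 28162 genes with 1 transcript. These estimates are approximate, and only 48.4% of the low values in S56 came out whole within 0.05. Sequences are from RefSeq (GRCm38.p6), and those of 8 of the 10 genes were used.

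The 10 genes and the 122 genes of all lists were chosen with earlier results of these data known. Named beside the 10 genes are those of the lists that passed the test or, from each list, up to 3 with the largest difference, and the 8 genes most like Ncr1. Tyrobp, Il1rl1, Klra8, Klrb1f and Cd247 were named outside this rule. Alternatives were the 15 tumors that the study plotted, each tumor left out, pseudocounts of 1 and 0.01, other filters, a median shift, quantile normalization, no trend, covariates (muscle genes, Xist, Ptprc) and exact tests. S41, S46, S51 and S56 are outside those 15. The study's methods state that samples failing quality control or short of RNA or DNA were removed, and do not name them. The fit without S41, S56 and S60 and the alternatives of Ncr1 minus Cd226 were chosen after seeing the data. Computations also used Python 3.11.15, numpy 2.4.6, pandas 2.3.3, scipy 1.17.1 and matplotlib 3.10.9. Exome data were not analysed here, and the summary of the list of other innate lymphoid markers is not reported here.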

Additional observations from a re-analysis of the deposited data

Results flagged for a closer look

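In 5 of 22 sets of Rag2+/- values tested for a tumor far from the others, S56 was the lowest tumor and stood apart. Chance alone flags about 1 in 20 independent sets, but these are values of the same 8 tumors whose genes rise and fall together, so the 5 are not independent and cannot be read against that rate. Groups of more than 10 tumors were not tested, so the Rag2-/- tumors were left out. Eomes was at −3.32 in S56, and the next tumor was at −1.53. The mean of the other lectin-like receptors was −2.65 in S56 and −1.56 in the next tumor. The mean of the adaptor and signaling genes was 1.17 in S56 and 2.25 in the next. The mean of the other NK surface molecules was −0.72 in S56 and 0.48 in the next. The mean of the macrophage markers was 5.47 in S56 and 6.77 in the next. The mean of the skeletal muscle genes was highest in S56, at 13.15, beside 6.54 to 12.20 in the other Rag2+/- tumors. Whether muscle content or the low share of whole values in this library has a part in these values was not tested.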

How the results depend on the processing

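No paired analysis was possible because the labels give no replicate numbers and tie no Rag2-/- tumor to a Rag2+/- tumor. The counts of genes called were 0 higher and 22 lower. Higher genes numbered 12 in the 15 tumors that the study plotted, 1 with the muscle covariate, 1 by exact tests and 0 to 11 with 1 tumor left out, the most without S51. Lower genes numbered 4 with a mean log2 value above 0 as the filter, 34 with no filter and 19 to 30 with 1 tumor left out. Of the 10 NK genes, 1 was called higher with the muscle covariate and 0 to 1 with 1 tumor left out. Called lower was 1 in the 15 tumors, 1 with the Ptprc covariate and 0 to 1 with 1 tumor left out. Of the other NK surface molecules, 1 was called lower in the 15 tumors. Ncr1 ran from 0.76 (pseudocount 1) to 1.67 (muscle covariate) over 32 alternatives and was called in 3. Cd226 ran from −2.92 (pseudocount 0.01) to −0.68 (pseudocount 1) over 31 and was called in 3, with an adjusted p of 0.0262 (limma) and −2.23 under the Ptprc covariate. Ncr1, Klrb1c, Klre1, Klrc1, Cd226 and Eomes kept their direction under every alternative that gave a value. Without S41, S56 and S60 the direction turned for Klrd1 (−0.15) and for Klrd1 relative to Ptprc (−0.22). Klrk1 turned in the 15 tumors (−0.44), with the Ptprc covariate (−0.41), without S41, S56 and S60 (−0.26) and with 1 tumor left out, where it ran from −0.24 to 0.19. Nkg7 turned with the muscle covariate (0.19) and ran from −0.38 to 0.025 with 1 tumor left out. Tbx21 turned with pseudocount 0.01 (0.14) and the muscle covariate (0.25) and ran from −0.51 to 0.011 with 1 tumor left out. Klre1, Cd226, Eomes and Tbx21 gave no value under the filter on the mean. Without S41, S56 and S60, Klrc1 relative to Ptprc was at −0.95 (exact p = 0.0170). Ncr1 minus Cd226 ran from 1.44 (pseudocount 1) to 4.38 (pseudocount 0.01), and all Rag2-/- tumors lay above all Rag2+/- tumors in each of its 4 alternatives. The causes were not tested. Few fragments limit Cd226, Ncr1 and Tbx21, whose lower group median was 13.3, 19.8 and 18.9 estimated fragments per tumor.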
